A study of Homo sapiens with 22 samples.

Results

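Cholesterol homeostasis was examined through 33 genes that make the sterol, regulate its synthesis, or take it up, move it and export it. They were chosen by name, as 18 enzymes of the synthesis route and 15 regulators, transporters and oxysterol genes. Of the 33 genes, 32 had a row in the expression table of 36859 genes, and the remaining enzyme was not analysed here. All 32 passed the filter on low values, set at 10 or more normalized counts in 2 or more libraries, which left 14585 genes. The measurements were RNA-seq of RPTEC, renal proximal tubule epithelial cells immortalized with hTERT, in 22 libraries that fall into 11 groups of 2.

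Cells build cholesterol from acetyl-CoA in a long chain of enzymes. The mevalonate arm makes isoprenoid units, and the later arm joins them into squalene, closes the ring and trims it to cholesterol. When membranes are poor in sterol, SCAP carries the transcription factors SREBF1 and SREBF2 from the endoplasmic reticulum to be activated, and they raise the enzymes and lipoprotein uptake. INSIG1 and INSIG2 hold SCAP back when sterol is plentiful. Serum brings lipoproteins, and with them cholesterol. Oxysterols, among them the 25-hydroxycholesterol made by CH25H, restrain the same activation and switch on the LXR receptors NR1H2 and NR1H3, which raise the exporters ABCA1 and ABCG1 and MYLIP, a ligase that marks lipoprotein receptors for degradation.

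The labels place 5 groups at 2% and 6 at 10% serum. In medium with 2% serum were WT cells, WT cells given 10 ng per mL TGF-β for 72 h, the SETD2 knockout clones KO1 and KO2, and a group labelled KO2_Rescue, here called the labelled KO2 rescue. In regular medium, which holds 10% serum, were Rescue1 and Rescue2, knockout cells that received full-length SETD2 by lentivirus, and 4 WT lines that carry eGFP, SOX2, OCT2 or PRRX1 by lentivirus. The protocol places rescue cells in regular medium, against the 2% label of the labelled KO2 rescue, so the serum level of that group is in doubt. SETD2 is the histone methyltransferase that trimethylates lysine 36 of histone H3. KO1 and KO2 are each 1 clone made with Cas9, the rescue lines are clones picked under blasticidin, and the eGFP, SOX2, OCT2 and PRRX1 lines are bulk cultures. Every group at 10% serum was transduced and none of WT, KO1 and KO2 was, so serum and transduction cannot be told apart. Untreated WT cells carry the label 0 h and TGF-β cells 72 h, so the time in 2% serum and TGF-β cannot be told apart either. The labels do not say that 2 libraries of a group came from separate cultures, and p-values then measure only the spread between these libraries, which may be technical.

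The summed normalized counts of a library ranged from 11674491 to 16758645. Between the libraries of a group the median absolute log2 difference over the 2347 genes of highest mean was 0.064 to 0.181. The highest value, 0.181, was that of WT, with which the transduced WT lines, the TGF-β cells, KO1 and KO2 are compared below. SETD2, the targeted gene, had 1852 and 2061 normalized counts in WT, 1046 and 1130 in KO1, 1050 and 1052 in KO2, and 9764 to 10445 in the rescue clones. The labelled KO2 rescue had 820 and 834, below KO2, so its SETD2 mRNA went against its label. Of the 10 proximal tubule markers, LRP2, SLC22A6, SLC22A8, SLC34A1 and SLC5A2 lay between 0 and 8.47 normalized counts in every library. CUBN, ANPEP, AQP1 and MME reached 333, 472, 448 and 880 at most and GGT1 lay between 225 and 1091, while the renal epithelial marker PAX8 lay between 1535 and 6561 and KRT8 between 3952 and 25190. In bulk RNA, fewer cells with a transcript and less of it per cell cannot be told apart.

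The upstream sequences of 5 genes are shown beside the pattern described below. MVK, HMGCS1 and DHCR7 stand for the enzymes that moved together and SREBF2 for their activator. CH25H is the oxysterol enzyme that moved the other way where a knockout clone was compared with WT or the rescue clones. From WT to the eGFP line it did not move. SREBF2 did not follow the enzymes there or from KO2 to the rescue clones. The sequences were read from RefSeq promoters (GRCh38.p14), of which 28 of the 32 genes had an entry, and were chosen after the values were seen. Each runs 5′ to 3′ on the strand of its gene and stops where an exon of a protein-coding gene begins. Capitals mark the CCAAT box, the NF-Y recognition sequence, on either strand (ATTGG on the other), in MVK (chr12:109573581-109573792, plus strand), HMGCS1 (chr5:43313513-43313662, minus strand), DHCR7 (chr11:71448436-71448643, minus strand, a stretch that also overlaps a non-coding exon) and CH25H (chr10:89207318-89207567, minus strand). In SREBF2 (chr22:41832855-41833104, plus strand, a stretch that also lies in an exon of the non-coding SREBF2-AS1) they mark the sterol regulatory element core TCACCCCAC alone.
MVK: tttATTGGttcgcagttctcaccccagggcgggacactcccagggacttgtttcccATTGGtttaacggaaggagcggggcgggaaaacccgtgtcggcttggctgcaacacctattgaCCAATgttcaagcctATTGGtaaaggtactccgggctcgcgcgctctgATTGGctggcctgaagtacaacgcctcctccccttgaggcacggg
HMGCS1: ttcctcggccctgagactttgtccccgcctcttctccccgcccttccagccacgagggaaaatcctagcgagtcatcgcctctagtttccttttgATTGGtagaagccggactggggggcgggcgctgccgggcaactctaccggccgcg
DHCR7: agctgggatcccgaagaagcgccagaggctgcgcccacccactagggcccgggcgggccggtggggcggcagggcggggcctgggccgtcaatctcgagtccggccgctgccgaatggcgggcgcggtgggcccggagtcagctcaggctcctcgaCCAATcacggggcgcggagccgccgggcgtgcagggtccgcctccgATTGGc
SREBF2: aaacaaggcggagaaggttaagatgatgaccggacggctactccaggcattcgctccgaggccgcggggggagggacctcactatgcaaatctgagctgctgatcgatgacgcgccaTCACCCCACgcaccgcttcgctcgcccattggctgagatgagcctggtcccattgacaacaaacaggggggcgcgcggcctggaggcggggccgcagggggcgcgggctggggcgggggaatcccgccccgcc
CH25H: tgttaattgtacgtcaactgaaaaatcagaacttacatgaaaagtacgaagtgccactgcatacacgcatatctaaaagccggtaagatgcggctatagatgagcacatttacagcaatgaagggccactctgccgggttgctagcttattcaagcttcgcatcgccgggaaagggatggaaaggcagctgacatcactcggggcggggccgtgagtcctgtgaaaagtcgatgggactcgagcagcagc

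The MVK stretch of 212 bases held 5 CCAAT boxes, the DHCR7 stretch 2 and the HMGCS1 stretch 1. The 250 bases upstream of CH25H held 0, and those of SREBF2 held 1, which is not in capitals. In the whole windows, from 250 bases before to 50 bases after a start, CCAAT was found for 13 of the 14 enzymes with an entry (15 of 19 promoters), against 34.6% of all 35116 promoters. GGGCGG, the Sp1 box, was found in 17 of the 19 enzyme promoters and in 45% of all promoters. The sterol element core TCACNCCAC was found in 1.13% of all promoters and, among the 38 promoters of these genes, in the SREBF2 one alone, 133 bases before its start. These matches describe the letters in a window and not where a factor was bound.

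The question set by the serum labels was whether these genes differ between the 6 groups at 10% and the 5 groups at 2%. Across group means, 0 of the 32 genes were called, where called means a limma adjusted p under 0.05 over all 14585 genes together with an absolute log2 change over 1. Of all genes, 4.91% were called. At an unadjusted p under 0.05 there were 6 of the 32 and 4299 of all genes, and the exact permutation test over the 11 group means (462 arrangements, two-sided, smallest possible p 0.00216) gave a p under 0.05 for 5 of the 32, without adjustment. The permutation test was run on these 32 genes alone, so no share of all genes stands beside it. Both tests took the 11 groups as independent units. The transduced WT lines come from the same WT cells, however, and both rescue clones from knockout cells. The p-values of both tests may therefore be too small. Of the 17 synthesis enzymes, 11 had a negative and 6 a positive change, with a median log2 change of -0.06.

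NR1H2, the LXR beta receptor, came closest to the threshold among the 32, with a log2 change of -0.55 ± 0.17 (SE), an adjusted p of 0.0528 by limma and an exact permutation p of 0.00433. Its group levels ran from 794 to 996 normalized counts at 10% serum and from 956 to 1996 at 2%, so that they overlapped narrowly. SOAT1, which esterifies cholesterol for storage, had a log2 change of 0.47 ± 0.16 (adjusted p = 0.0728, exact permutation p = 0.00649). SREBF2 had the widest gap of the more abundant genes, at 1.51 ± 0.51 (adjusted p = 0.0736). The 8 libraries of the eGFP, SOX2, OCT2 and PRRX1 lines (380 to 600) lay above the WT libraries (220 and 269) and the 4 libraries of the rescue clones (79.5 to 191) below them. INSIG2 (-0.71 ± 0.27, exact permutation p = 0.0303) and SCAP (-0.63 ± 0.23, exact permutation p = 0.0325) had unadjusted p-values of the same order. Without the rescue clones, SREBF2 alone was called, at 2.14 (adjusted p = 0.00803), and without the labelled KO2 rescue, whose serum level is in doubt, 0 of the 32 genes were called. The group means overlapped between the serum levels for all 32 genes. How often they overlap among all genes was not counted. Among the genes around the pathway, LBR, a sterol reductase of the nuclear envelope, rose by 1.66 ± 0.48, and CYP27A1, which makes 27-hydroxycholesterol, and LIPA, the lysosomal acid lipase, fell by 1.40 and 1.37 on the log2 scale.

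**Figure D1:**
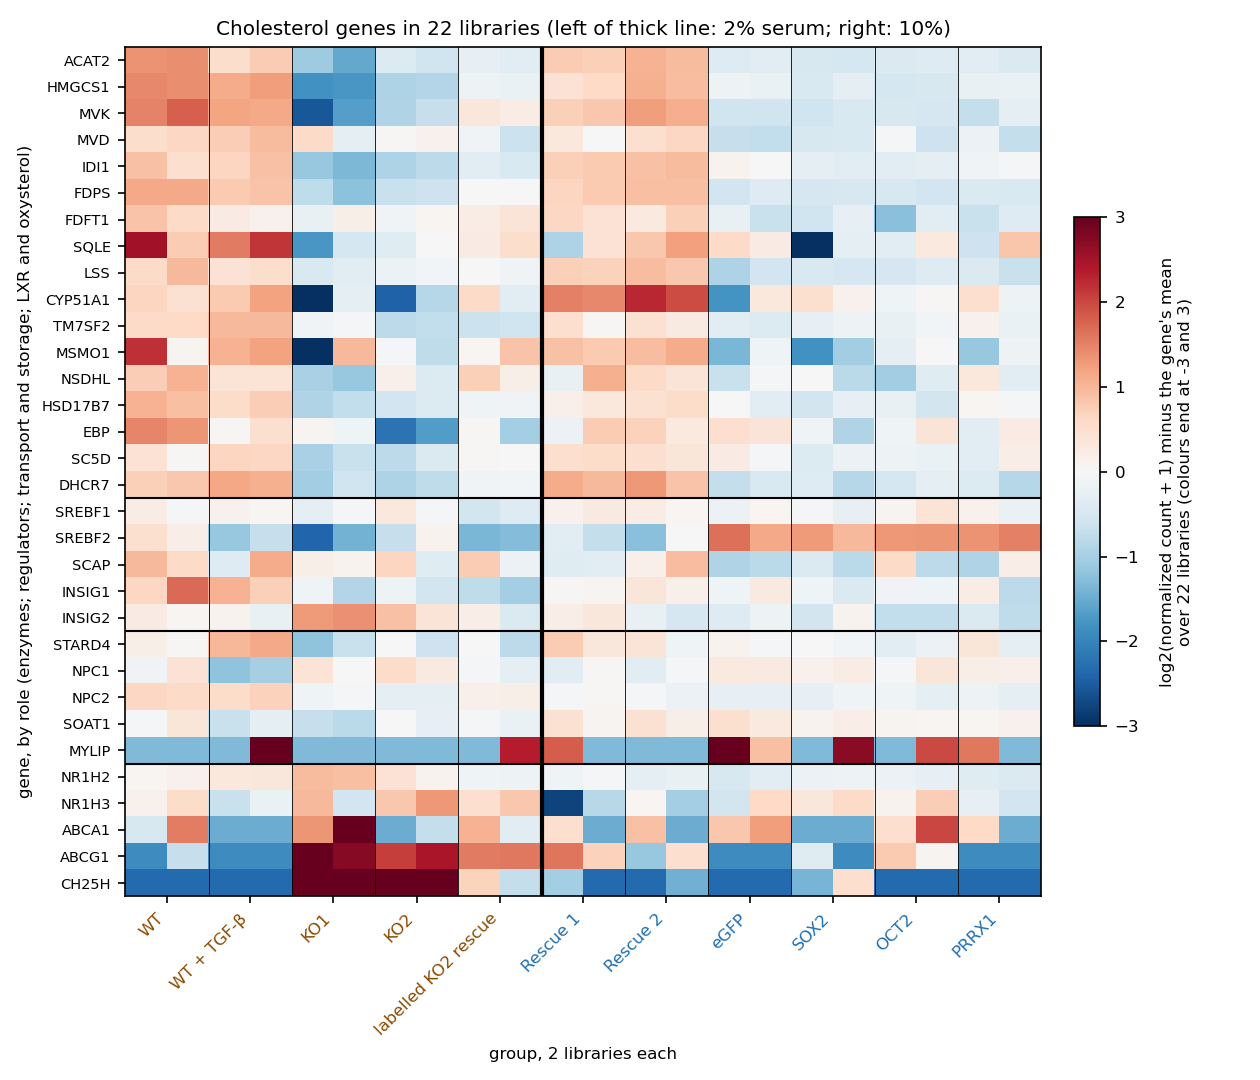
Each cell is log2(normalized count + 1) of 1 gene (rows, grouped by role) in 1 library (columns, 2 per group), minus the mean of that gene over 22 libraries; red is above and blue below the mean, and colours end at -3 and 3. Most enzymes are red in WT, WT with TGF-β and the rescue clones, where the median log2 level of the 17 is 8.66 to 9.50, and blue in KO1, KO2 and the 4 transduced WT lines, where it is 7.43 to 8.28, with exceptions such as MVD in KO2 and EBP in eGFP; the thick line separates the serum levels.

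Each serum level held lines that stood apart in opposite directions. In cells with intact SETD2, the eGFP line at 10% serum stood below WT at 2% for all 17 enzymes, with a median log2 change of -1.28 against 0.00 over all genes, and 10 of the 17 fell. Over the 32 genes 12 fell and 0 rose, beside 6.24% of all genes that fell. MVK, the kinase that phosphorylates mevalonate, had 666 and 823 normalized counts in WT and 155 and 157 in the eGFP line. It changed by -2.24 ± 0.23 (SE) on the log2 scale (adjusted p = 5.61e-06). HMGCS1, which makes the HMG-CoA that feeds mevalonate, had 6140 and 5903 in WT and 2016 and 1956 in eGFP, a change of -1.60 ± 0.08 (adjusted p = 2.72e-09). The libraries of these groups did not overlap for either gene, and the gap was many times the spread within a group. Both genes were picked for their large changes. How often libraries separate in this way among all genes was not counted, here or in the comparisons below.

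Other members of the mevalonate arm moved the same way. ACAT2, the cytosolic thiolase at its head, fell by 1.73 on the log2 scale from 3962 and 4089 to 1187 and 1235 normalized counts. FDPS, which makes farnesyl diphosphate, fell by 1.61 from 5008 and 5033 to 1536 and 1750. MVD, the decarboxylase, fell by 1.28, from 167 and 177 to 70.7 and 69.3. IDI1, the isomerase between them, changed by -0.63 ± 0.12 and passed the p threshold but not the fold (adjusted p = 0.00109).

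In the sterol arm LSS, which closes the ring, fell by 1.52, from 3139 and 4108 normalized counts to 1113 and 1407. DHCR7, the last reductase, fell by 1.34, from 2013 and 2125 to 743 and 893. FDFT1, the squalene synthase, HSD17B7 and NSDHL, which trim the sterol ring, fell by 1.15, 1.13 and 1.27. TM7SF2, a sterol reductase, changed by -0.95 ± 0.16 and passed the p threshold alone. SQLE, CYP51A1, MSMO1, EBP and SC5D were not called. For SQLE, the epoxidase, the 2 WT libraries had 942 and 281 and the eGFP libraries 246 and 195, so the spread within WT was wider than the gap between the groups. MSMO1 (520 and 119 in WT) and CYP51A1 (23.8 and 106 in eGFP) had a similar spread, and no difference was detectable for them at this spread.

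Among the regulators, INSIG1 fell by 1.09 and SCAP by 1.63. Both were uneven between libraries. INSIG1 had 613 and 1315 in WT against 367 and 480 in eGFP, and its call was lost without WT replicate 2 (-0.54, adjusted p = 0.358), eGFP replicate 1 (-0.90) or eGFP replicate 2 (-1.29). SCAP had 960 and 723 against 261 and 276. SREBF2 had 269 and 220 in WT and 600 and 422 in eGFP, which is 1.05 ± 0.39 higher with an adjusted p of 0.0653. SREBF1 (-0.15 ± 0.16), SOAT1 (0.24 ± 0.18), NPC1, which carries cholesterol out of lysosomes (0.12 ± 0.21), and STARD4, a cytosolic carrier (-0.07 ± 0.31), did not pass the test. NPC2, the lysosomal partner of NPC1, passed the p threshold alone at -0.83 ± 0.08. Leaving out each library in turn, the calls of 7 genes (HMGCS1, ACAT2, MVK, MVD, FDPS, LSS and DHCR7) held in every fit, and those of 5 (FDFT1, HSD17B7, NSDHL, INSIG1 and SCAP) were lost in at least 1. Without eGFP replicate 2 the changes of FDFT1 and HSD17B7 were -0.92 and -0.95, and NSDHL lost its call without eGFP replicate 1 (-0.96), WT replicate 1 (-1.41) or WT replicate 2 (-1.12). SCAP lost its call without any of the 4 libraries, at changes of -1.42 to -1.83.

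The mean of the 4 transduced WT lines against the same WT libraries gave 13 genes that fell (5.98% of all genes) and 0 that rose, with a median of -1.32 over the enzymes. Of the 13 calls 8 held without each library. INSIG1 (-0.76) and NSDHL (-1.12) lost theirs without WT replicate 2, EBP (-1.33) without WT replicate 1, MVD (-0.99) without OCT2 replicate 2 or PRRX1 replicate 2, and SCAP without any of 6 libraries, both WT libraries among them. The SOX2, OCT2 and PRRX1 lines were compared with eGFP. By limma 0 of the 32 genes were called in each of these 3 comparisons, beside 0.0206%, 0.0343% and 0.0411% of all genes, and 8, 5 and 0 of the 32 had an unadjusted p under 0.05, as did 986, 1026 and 673 of all 14585 genes. For HMGCS1 the differences from eGFP were -0.20, -0.34 and -0.03 on the log2 scale. FDPS lay between 1531 and 1750 normalized counts in all 8 libraries of these 4 lines. SREBF2 lay between 380 and 600 in the same 8 libraries, above every other library of the series, and its change from WT of 0.97 ± 0.31 passed the p threshold alone (adjusted p = 0.0265).

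The other step from 2% to 10% serum runs from the KO2 clone to Rescue1 and Rescue2, and it shares no library with the step from WT to eGFP. Here all 17 enzymes were higher at 10% serum, with a median log2 change of 1.34 against -0.03 over all genes, and 10 of the 17 rose. Of the 32 genes 10 rose, beside 7.84% of all genes, and 3 fell, beside 9.65%. HMGCS1 had 1183 and 1218 normalized counts in KO2, 3051 and 3417 in Rescue1 and 4683 and 4278 in Rescue2, a change of 1.66 ± 0.07 (adjusted p = 1.6e-10). MVK had 126 and 146 in KO2 and 386 to 566 in the 4 rescue libraries (1.76 ± 0.20). DHCR7 had 641 and 725 in KO2 and 2223 to 3020 in the rescue libraries (1.91 ± 0.17). None of these 3 genes overlapped between KO2 and the rescue clones. They were picked for large changes, and no share of all genes stands beside this.

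The other genes that rose in this step were IDI1 (1.69 ± 0.10), FDPS (1.46 ± 0.10), ACAT2 (1.36 ± 0.11), EBP, a sterol isomerase (2.34 ± 0.37), SC5D, a sterol desaturase (1.09 ± 0.16), TM7SF2 (1.07 ± 0.14) and CYP51A1, the sterol demethylase (3.44 ± 1.12). CYP51A1 had 14.9 and 46.5 in KO2 and 233 to 408 in the rescue clones, and its call was lost without KO2 replicate 1 (2.65, adjusted p = 0.223) and, at 3.36 to 3.45, without Rescue1 replicate 1, Rescue1 replicate 2 or Rescue2 replicate 1. The 3 genes that fell were on the oxysterol side. CH25H had 660 and 521 in KO2 and at most 1.48 in the rescue clones, which is at least 197-fold lower when the rescue clones are set at a floor of 3 normalized counts per library. NR1H3, the LXR alpha receptor, had 144 and 203 in KO2 and 11 to 85.9 in the rescue clones (-2.20 ± 0.54). ABCG1 had 14.5 and 19 in KO2 and 0.673 to 10.3 in the rescue clones. In this step SREBF2 did not pass the test (-0.29 ± 0.34), with 118 and 208 in KO2 and 79.5 to 191 in the rescue clones. Without single libraries, SC5D fell under the fold minimum (0.91 without KO2 replicate 1), as did TM7SF2 (0.96 without Rescue1 replicate 1), and NR1H3 (-1.96, adjusted p = 0.0644 without KO2 replicate 2) no longer passed the adjusted p. ABCG1 no longer passed it without KO2 replicate 1 or 2, Rescue1 replicate 2 or Rescue2 replicate 1 (adjusted p = 0.0882 to 0.175).

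**Figure D2:**
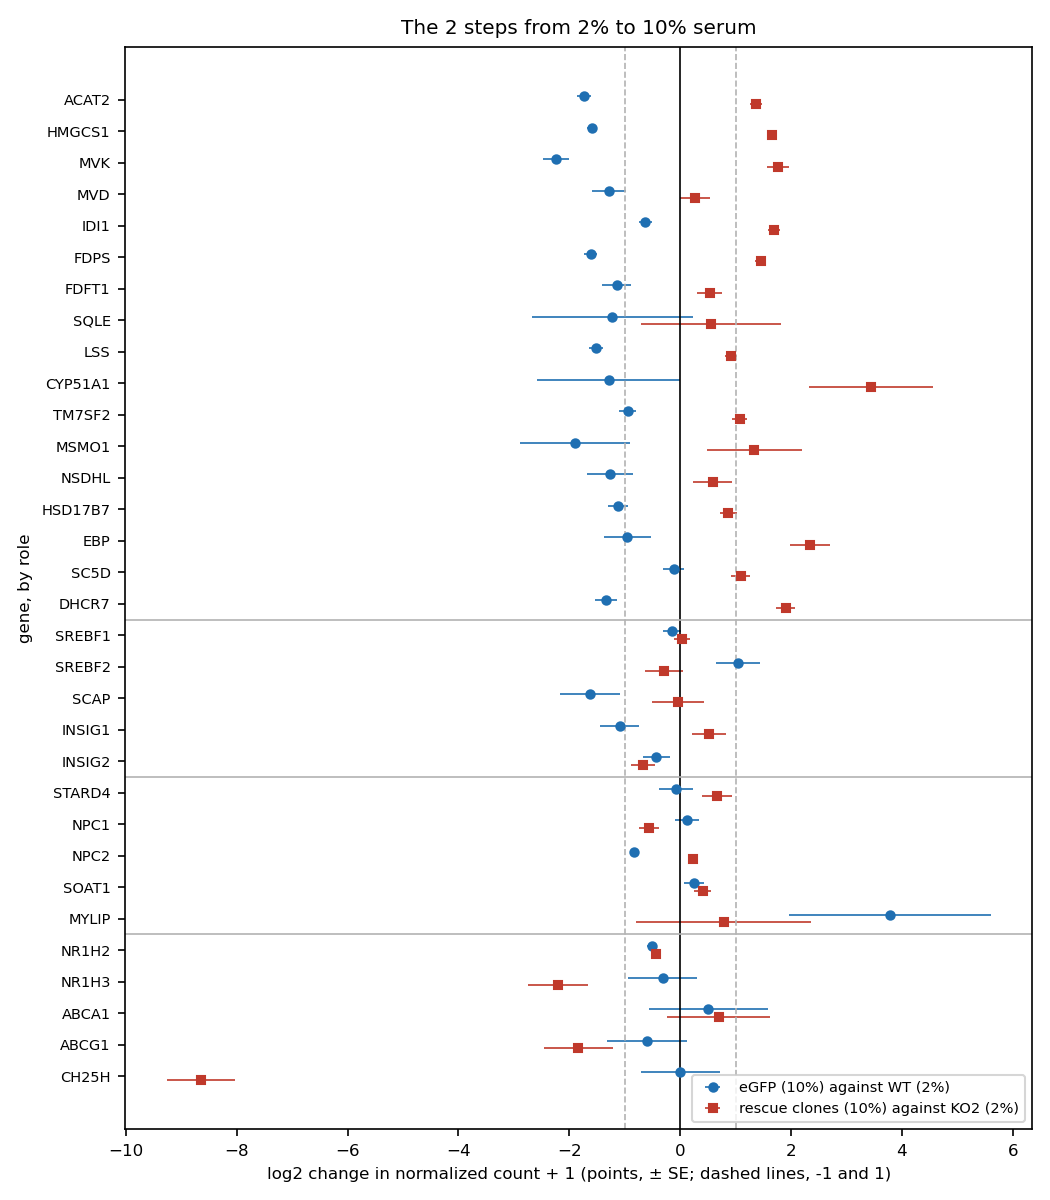
Each gene (rows, grouped by role) has its log2 change from 2% to 10% serum in the eGFP line against WT (blue circles) and in the rescue clones against KO2 (red squares), with standard errors as bars and dashed lines at -1 and 1. All 17 enzymes in the top block lie left of 0 in blue and right of 0 in red, while CH25H lies near 0 in blue and at -8.65 in red.

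The difference between these 2 steps was tested itself, as the change from KO2 to the rescue clones minus the change from WT to eGFP. It was called higher for 17 of the 32 genes, beside 9.82% of all genes, and lower for 1, beside 10.8%. The 17 were 15 enzymes, INSIG1 and NPC2, and the enzymes outside them were SQLE and MSMO1. MVK differed by 4.0 ± 0.31 on the log2 scale, HMGCS1 by 3.26 ± 0.10, DHCR7 by 3.25 ± 0.26, ACAT2 by 3.09 ± 0.16 and FDPS by 3.07 ± 0.15. NPC2 differed by 1.06 ± 0.10. CH25H was the gene called lower. The calls of NSDHL and INSIG1 were lost without eGFP replicate 1 (1.55 and 1.42), KO2 replicate 2 (1.57 and 1.42) or WT replicate 2 (1.71 and 1.07), that of CYP51A1 without any library but eGFP replicate 2 (3.68 without eGFP replicate 1), and the other 15 held in every such fit. Both steps run from untransduced cells at 2% serum to transduced cells at 10%. They differ in the starting line, the SETD2 that the rescue step adds, the selection and the cloning, whose parts cannot be told apart.

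Within 10% serum, the rescue clones stood above the eGFP line. Of the 32 genes 7 rose, beside 6.47% of all genes, and 1 fell, beside 6.66%. DHCR7 rose by 1.65 ± 0.17, MVK by 1.56 ± 0.20, LSS by 1.54 ± 0.11, FDPS by 1.28 ± 0.10, ACAT2 by 1.23 ± 0.11 and MVD by 1.07 ± 0.27. HMGCS1 passed the p threshold just under the fold (0.94 ± 0.07). ABCG1 was also called, from 0 in both eGFP libraries to a mean that is at least 1.68-fold higher than the floor of 3 normalized counts. Its call was lost when either eGFP library was left out (adjusted p = 0.0727 and 0.0627), and that of MVD fell under the fold minimum without Rescue1 replicate 1 (0.99). SREBF2 was the gene that fell (-1.97 ± 0.34, adjusted p = 0.000485), and the 4 rescue libraries (79.5 to 191) did not overlap the 2 eGFP libraries (422 and 600). The mRNA of the activator and those of the enzymes thus moved in opposite directions between these lines.

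**Figure D3:**
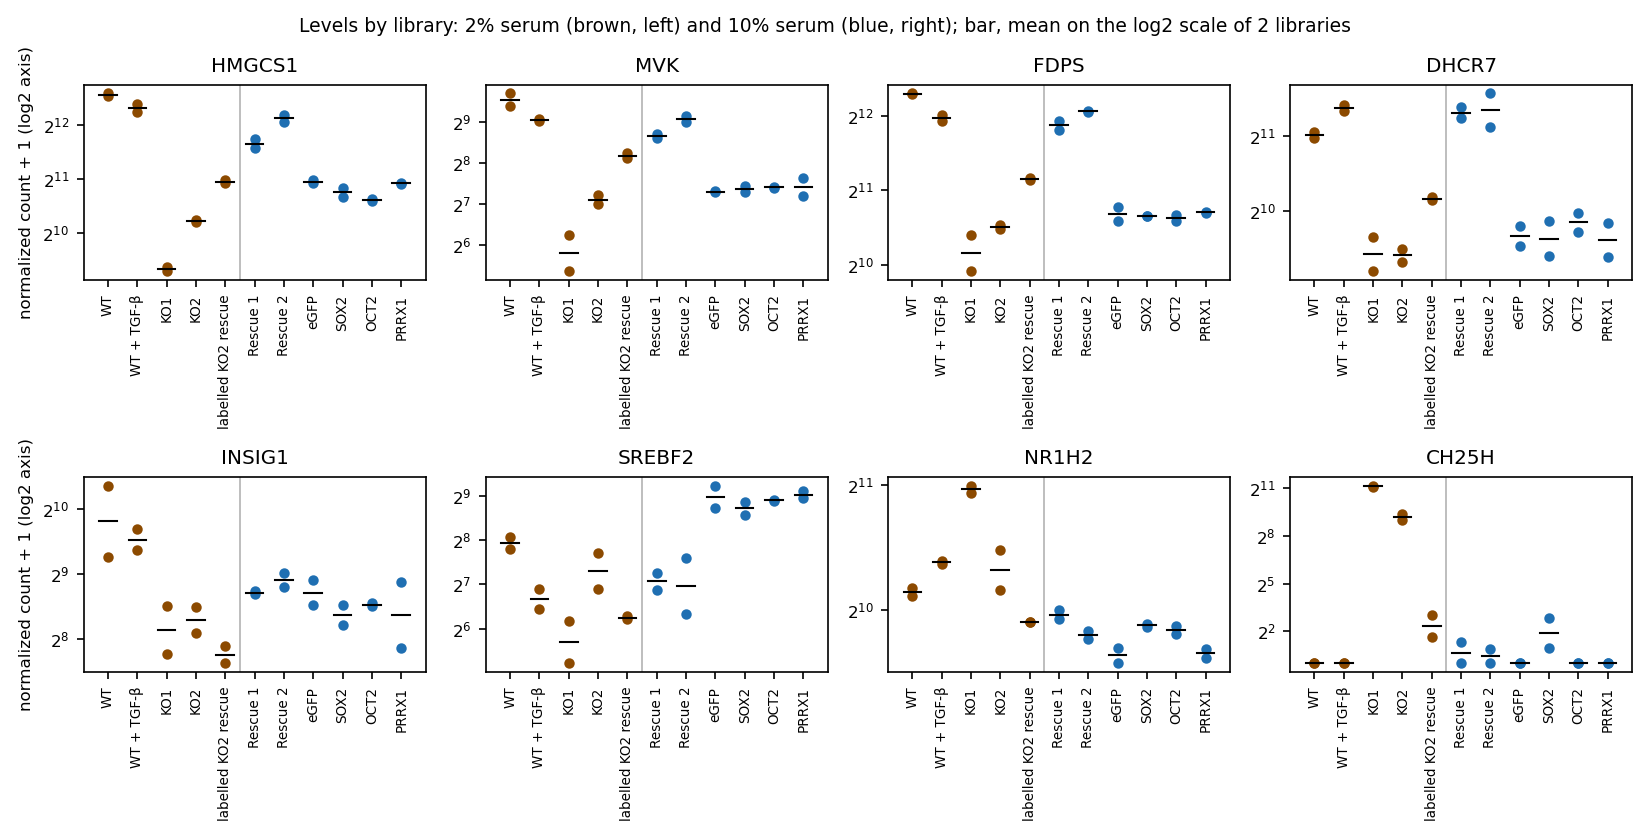
Normalized count + 1 (log2 axis) of 8 genes in the 11 groups, 2 libraries each as points and their mean on the log2 scale as a bar, with 2% serum in brown and 10% serum in blue. HMGCS1, MVK, FDPS and DHCR7 are high in WT, WT with TGF-β and the rescue clones and low in KO1, KO2 and the transduced WT lines, SREBF2 is highest in the transduced WT lines, and CH25H is high in KO1 and KO2 alone.

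Within 2% serum the question was how the SETD2 knockout clones differ from WT in these genes. Both knockout clones stood below WT for all 17 enzymes, with a median log2 change of -1.94 in KO1 and -1.55 in KO2 against 0.00 over all genes. These comparisons share the WT libraries with each other and with the eGFP comparison. KO2 against WT also shares the KO2 libraries with the rescue clones against KO2, so a low value there enters both the fall and the rise. In KO1 15 of the 32 genes fell, beside 13.1% of all genes, and 3 rose, beside 12%. In KO2 10 fell, beside 7.29%, and 2 rose, beside 9.02%. HMGCS1 had 633 and 668 normalized counts in KO1 and 1183 and 1218 in KO2 against 6140 and 5903 in WT, changes of -3.21 ± 0.08 (adjusted p = 3.32e-13) and -2.32 ± 0.08 (adjusted p = 1.56e-11). MVK had 40.0 and 73.9 in KO1 and 126 and 146 in KO2 against 666 and 823 in WT, changes of -3.74 ± 0.23 and -2.44 ± 0.23. For both genes every knockout library lay below every WT library, again without a share of all genes beside it.

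The enzymes that fell in both clones were HMGCS1, MVK, ACAT2 (-2.67 and -1.86), FDPS (-2.14 and -1.79), IDI1 (-1.94 and -1.55), HSD17B7 (-1.79 and -1.46), DHCR7 (-1.58 and -1.60) and EBP (-1.42 and -3.35). In KO1 alone the call was also made for NSDHL (-1.94 ± 0.41), LSS (-1.17 ± 0.13), SC5D (-1.05 ± 0.19) and CYP51A1 (-3.90 ± 1.29), and in KO2 alone for TM7SF2 (-1.34 ± 0.16). CYP51A1 had 0 and 70.4 normalized counts in KO1, and its call was lost without KO1 replicate 1 (-0.82, adjusted p = 0.403) or either WT library (-3.80 and -3.99). In KO1 the calls of LSS, SC5D and EBP were also lost, LSS without WT replicate 2 (-0.98), SC5D without KO1 replicate 1 or WT replicate 1 (-0.90 and -0.85) and EBP without KO1 replicate 2 or WT replicate 1 (-1.31 and -1.36). MVD (-0.43 ± 0.31 and -0.48 ± 0.31), SQLE and MSMO1 did not pass the test in either clone.

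The regulators and the LXR side moved in more than 1 direction. INSIG1, itself a target of SREBF2, fell in both clones (-1.67 and -1.52), and in KO2 its call was lost without WT replicate 2 (-0.97, adjusted p = 0.0767). INSIG2, its relative, had 764 and 813 in KO1 against 374 and 325 in WT and rose by 1.17 ± 0.25. In KO2 it had 574 and 406 (0.47 ± 0.25) and did not pass. SREBF2 fell in KO1, from 269 and 220 to 36.2 and 71.1 normalized counts (-2.24 ± 0.39, adjusted p = 0.000336), and had 118 and 208 in KO2 (-0.63 ± 0.39, adjusted p = 0.268). SREBF1 stayed between 719 and 1083 in these 6 libraries, with changes of -0.24 ± 0.16 and 0.05 ± 0.16. STARD4 fell in KO1 by 1.05, a call that was lost without KO1 replicate 1 or WT replicate 1 (-0.78 and -0.98). NPC2 passed the p threshold alone in both clones (-0.69 ± 0.08 and -0.89 ± 0.08).

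CH25H, which lies on chromosome 10 (GRCh38, 89205629 to 89207317, minus strand), had 0 normalized counts in both WT libraries, 2301 and 2167 in KO1 and 660 and 521 in KO2. Against the floor of 3 normalized counts its level in KO1 was at least 745-fold higher, and that in KO2 at least 197-fold. In the other 18 libraries it did not exceed 7.01. ABCG1, which exports cholesterol to lipoproteins, had 0 and 1.27 in WT, 33.1 and 23.5 in KO1 and 14.5 and 19 in KO2, which is at least 9.44-fold and at least 5.59-fold higher. It rose in both clones from the floor to a low level. ABCA1 did not exceed 21.4 and MYLIP 40.1 in any library, and neither passed the test in any comparison with WT. NR1H2 passed the p threshold alone in KO1 (0.82 ± 0.09), at 2035 and 1959 against 1106 and 1151 in WT, and NR1H3 passed in neither clone.

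**Figure D4:**
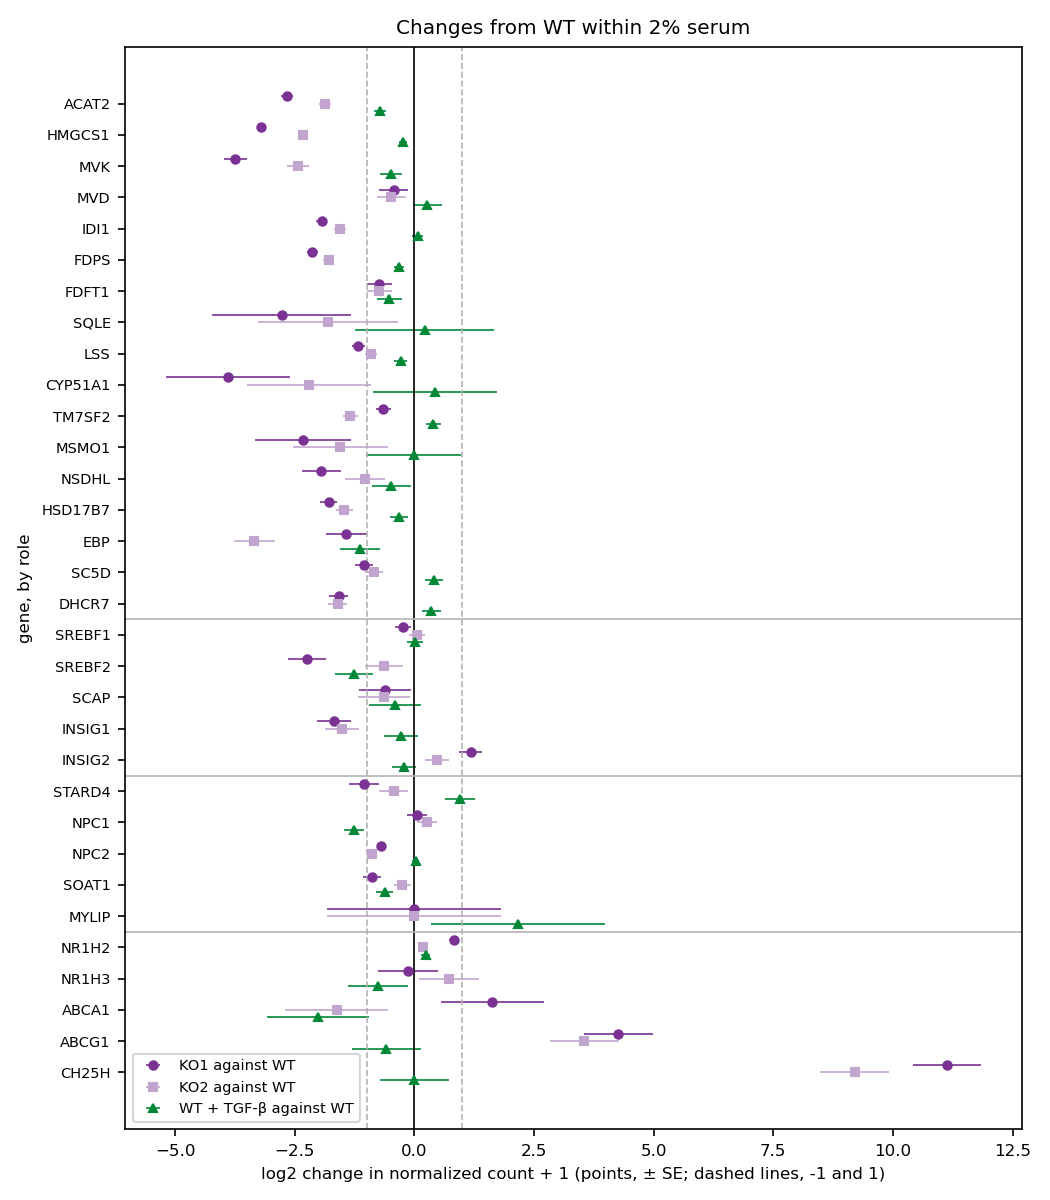
Log2 changes from WT within 2% serum for each gene (rows, grouped by role) in KO1 (dark circles), KO2 (light squares) and WT with TGF-β (green triangles), with standard errors as bars and dashed lines at -1 and 1. The enzymes of the top block lie left of 0 in both clones, with HMGCS1 at -3.21 and -2.32, and most lie between -1 and 1 with TGF-β, where EBP is at -1.13 and ACAT2 at -0.72; CH25H lies at the right edge in both clones.

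The 2 knockout clones were also compared with each other, a comparison chosen after the values were seen. The share of the 32 genes called was close to that of all genes. In KO1 against KO2, MVK (-1.30 ± 0.23, adjusted p = 0.00141) and SREBF2 (-1.60 ± 0.39, adjusted p = 0.0123) were lower, which is 2 of the 32 genes beside 4.49% of all genes, and EBP (1.93 ± 0.42) was higher, 1 gene beside 2.48%. EBP had 90.5 and 77.9 normalized counts in KO1 and 17.6 and 25.8 in KO2. HMGCS1 (-0.88 ± 0.08) and ACAT2 (-0.81 ± 0.12) passed the p threshold alone. None of the 3 calls held without every library: MVK was at -0.87 without KO1 replicate 1, SREBF2 at -1.13 (adjusted p = 0.0887) without the same library and at -1.20 without KO2 replicate 2, and EBP at 1.66 (adjusted p = 0.0566) without KO2 replicate 1. For CH25H, the difference of 1.93 ± 0.71 had an adjusted p of 0.0841.

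With TGF-β in WT cells, 0 of the 17 enzymes were called. Their median log2 change was -0.24, 10 of the 17 were negative, and by limma only ACAT2 passed the p threshold alone (-0.72 ± 0.12). EBP had 87.9 and 120 normalized counts against 237 and 217 in WT, without overlap, at a change of -1.13 ± 0.42 (adjusted p = 0.0849). At an unadjusted p under 0.05 there were 12 of the 32 genes and 4115 of all 14585. HMGCS1 had 4831 and 5388 normalized counts (-0.24 ± 0.08) and DHCR7 2722 and 2568 (0.35 ± 0.20). The 2 genes that fell, beside 4.26% of all genes, were NPC1, from 342 and 495 to 160 and 185 (-1.25 ± 0.21, adjusted p = 0.000622), and SREBF2, from 269 and 220 to 86.1 and 118 (-1.26 ± 0.39, adjusted p = 0.0392). NPC1 fell under the fold minimum without WT replicate 2 (-0.99), and SREBF2 lost its call without any of the 4 libraries (adjusted p = 0.0671 to 0.231). STARD4 passed the p threshold alone at 0.96 ± 0.31 and SOAT1 at -0.62 ± 0.18. CH25H was at 0 in both TGF-β libraries.

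The summed counts of the enzymes in the labelled KO2 rescue at 2% serum (12689 and 12306) stood between those of KO2 (8859 and 9224) and WT (28090 and 27320), while its SETD2 mRNA did not exceed that of KO2. Against KO2, 2 of the 32 genes rose (1.65% of all genes) and 1 fell (2.52%), and by the adjusted p alone 7 were higher (4.96%) and 3 lower (5.38%). MVK had 298 and 274 normalized counts against 126 and 146 in KO2 (1.07 ± 0.23) and EBP 87.9 and 41.5 against 17.6 and 25.8 (1.46 ± 0.42). HMGCS1 had 2019 and 1954 (0.73 ± 0.08), FDPS 2285 and 2249 (0.64 ± 0.11) and DHCR7 1132 and 1163 (0.75 ± 0.20), all above every KO2 library and below every WT library. The share of all genes that lie so was not counted. CH25H had 7.01 and 2.07 against 660 and 521 in KO2 (-6.89 ± 0.71, adjusted p = 1.3e-05). SREBF1 (-0.61 ± 0.16) and NR1H2 (-0.41 ± 0.09) were lower by the p threshold alone. The call of CH25H held without each library, and those of MVK and EBP did not: without KO2 replicate 1 they were at 0.96 and 1.19, without KO2_Rescue replicate 1 at 1.01 and 0.92, and without KO2 replicate 2 EBP was at 1.72 (adjusted p = 0.0696). With the replicate number as a block, EBP had an adjusted p of 0.0529.

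Genes around the pathway were described by lists written with results of these data known, and their counts stand beside the shares of all genes called: 13.1% lower and 12% higher in KO1, 7.29% and 9.02% in KO2, 6.24% lower in eGFP, 4.26% lower with TGF-β, and 7.84% higher and 9.65% lower from KO2 to the rescue clones. Of 14 fatty acid synthesis genes, the usual targets of SREBF1, 11 were tested. In KO1 4 of them fell, led by ACACA, the carboxylase that makes malonyl-CoA (-3.04 ± 0.55), and ACSL3, which activates long-chain fatty acids (-2.20 ± 0.18), and 0 rose. In KO2 2 fell and 0 rose, in eGFP against WT 1 fell and 0 rose, and from KO2 to the rescue clones 3 rose and 0 fell, ELOVL5 with 1.40 ± 0.25 and ACACA with 1.39 ± 0.48. The list's median changes were -0.38, -0.28, -0.21 and 0.88. Of 20 genes of sterol sensing, trafficking and storage, 4 rose and 2 fell in KO1 and 3 rose and 0 fell in KO2. GRAMD1B, which moves cholesterol from the plasma membrane to the endoplasmic reticulum, rose in both clones (5.39 ± 0.51 and 4.87 ± 0.51), in eGFP (3.01 ± 0.51) and over the transduced WT lines (3.74 ± 0.40). LRP1, a lipoprotein receptor of the endocytic family, rose in KO1 (3.31 ± 0.10), in KO2 (2.47 ± 0.10) and with TGF-β (1.35 ± 0.10). From KO2 to the rescue clones 0 of these 20 rose and 5 fell, LRP1 by 1.86 on the log2 scale.

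Of 8 other LXR targets 7 were tested. In KO1 1 rose, ABCA7 (1.02 ± 0.30), and in KO2 1 rose, LPL, the lipoprotein lipase (3.19 ± 0.78), with 0 that fell in either clone. From KO2 to the rescue clones 0 rose and 2 fell, PLTP (-4.91 ± 0.98), a phospholipid carrier, and LPL (-4.04 ± 0.67). Of 10 other sterol-responsive and isoprenoid genes, in KO1 ERG28, a scaffold of the sterol demethylation enzymes, fell by 1.45 and CYB5R3, a reductase that serves sterol desaturation, rose by 1.22 ± 0.08, and in KO2 and in eGFP against WT 0 were called.

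Proliferation genes moved beside the enzymes in several comparisons. Of 16 such genes 15 were tested. In eGFP against WT 6 fell, in KO1 12 and in KO2 11, with 0 that rose, and from KO2 to the rescue clones 10 rose and 0 fell. MKI67, a marker of cycling cells, had 4088 and 6581 normalized counts in WT, 67.2 and 202 in KO1, 264 and 1105 in KO2, 1556 and 1913 in eGFP and 3175 to 3541 in the rescue clones. After TGF-β, 8 of the 15 fell and 0 rose, at a list median of -1.72, while 0 of the 17 enzymes were called at a median of -0.24. MKI67 was at 859 and 959 there, below the eGFP line. The enzymes summed to 22656 and 24586 normalized counts after TGF-β, to 7052 and 7322 in KO1, to 9460 to 10577 in the transduced WT lines and to 20979 to 25466 in the rescue clones. The part of proliferation in the enzyme changes was not tested.

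**Figure D5:**
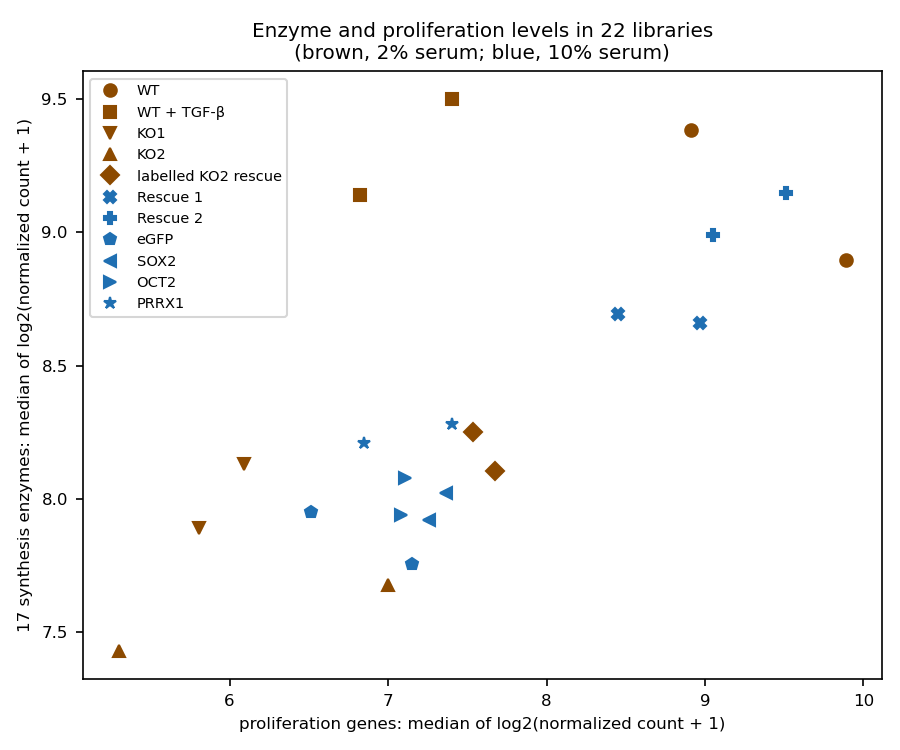
Each point is 1 of 22 libraries, with the median of log2(normalized count + 1) over the proliferation genes on the x axis and over the 17 synthesis enzymes on the y axis; brown is 2% and blue 10% serum, and shapes are groups. The TGF-β libraries lie at 6.82 and 7.40 on the x axis and at 9.14 and 9.50 on the y axis, above the transduced WT lines, which span 6.51 to 7.41 on the x axis and 7.75 to 8.28 on the y axis.

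Markers of other cells also differed between groups. Fibroblast markers are also mesenchymal genes of this cell model, so they do not single out another cell type. The summed fibroblast list was 12452 and 846 normalized counts in WT, 223505 and 236651 in KO1, 100073 and 103687 in KO2, 46403 and 47814 with TGF-β, 39189 and 41519 in the labelled KO2 rescue, 3686 to 6047 in the transduced WT lines and 830 to 1536 in the rescue clones. In KO1 and KO2 most of it was DCN (221606 and 234809 in KO1), while COL3A1 and COL1A2 did not exceed 28.1 in any library. The endothelial list summed to at most 154 and the leukocyte list to at most 371 in any library, with CD3E at 0 in all. In eGFP against WT, THY1 (6.85), DCN (2.16), CD14 (2.80) and the epithelial CDH6 (1.20) rose. COL1A1 and the epithelial EPCAM fell (-2.54 and -1.49 on the log2 scale). In KO1, EPCAM (-3.51), KRT8 (-1.92) and KRT19 (-1.48) fell and PAX8 (1.13) rose, and in KO2 EPCAM fell (-1.74). Of the fibroblast list 4 genes rose in each clone, and COL3A1 (-2.37) fell in KO1. The endothelial KDR rose in both clones (6.41 and 6.68), and CD14 (2.71) rose in KO1. Of the 5 proximal tubule markers tested, CUBN, ANPEP and MME rose in both clones, by 3.30, 2.77 and 2.29 in KO1 and by 2.83, 2.36 and 1.70 in KO2. From KO2 to the rescue clones 5 of the 8 fibroblast genes fell, DCN (-7.67), THY1 (-6.68), LUM (-4.16), COL1A1 (-2.84) and PDGFRA (-1.55). Of the 8 renal epithelial genes KRT8 (1.21) and CDH6 rose, but 5 of the 8 changes were negative, with a list median of -0.28. The endothelial CDH5 (4.98) rose and KDR (-4.22) fell. CD68 (-5.43) of the leukocyte list and the proximal tubule markers ANPEP (-2.15) and GGT1 (-1.68) also fell. Their part in the enzyme changes was not tested. Scaling every library to the same total moved the median of all genes by -0.40 in KO1 and -0.21 in KO2 against WT, -0.20 with TGF-β, 0.26 from KO2 to the rescue clones, 0.29 in the difference of the steps and 0.21 between the serum levels. Under that scaling 20 of the 32 genes fell and 2 rose in KO1, and INSIG2 there was at 0.77 (adjusted p = 0.0206), under the fold minimum. The share of all genes called under that scaling was not counted, so the 20 cannot be set against it.

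Some of these genes share sequence with other transcripts. Rows of their own were held by 16 annotated pseudogenes of 4 members, 8 of them of FDPS, and the others of IDI1, CYP51A1 and HSD17B7, so reads of these 4 may have been split among copies. Exons of 7 members overlap an exon on the opposite strand (CYP51A1, MVK, ACAT2, SREBF1, NR1H2, NPC1 and NPC2) and those of CYP51A1 and TM7SF2 an exon on the same strand. The library kit keeps strand, and how the counting used it is not given in the sources used here. The values of these genes carry that uncertainty.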

How the data were processed

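RNA-seq was made with a stranded mRNA kit from 22 libraries in 11 groups of 2, taken from the labels. The authors quantified reads with Salmon (1.9.0) against the Ensembl human cDNA and normalized them with DESeq2 (1.26.0), and the labels name hg38. The deposited values are log2 values on DESeq2's variance-stabilised scale, made by the authors, between 11.32 and 21.28, where the lowest value stands for 0 reads. They were inverted to normalized counts, which are not whole reads, so no count test was run. The tests had been planned for normalized counts on a linear scale. The depth in reads is unknown.

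Gene identifiers were matched to GENCODE 44 symbols (33878 of 36859 genes). The 14585 genes that reached 10 normalized counts in 2 or more libraries were tested with limma (3.58.1, R 4.3.3) on log2(normalized count + 1) with a trended variance, in 1 fit over the 11 groups, and adjusted by Benjamini-Hochberg over all of them. A fold change on this scale can understate the change of low genes. Where 1 library of a group is at 0 it can instead overstate it, as for CYP51A1 in KO1 (0 and 70.4 normalized counts). The serum levels were compared over 11 group means (6 against 5), with an exact permutation test beside it. Calls needed an adjusted p below 0.05 together with a log2 change beyond 1 in either direction, and a fold against a group at 0 was taken against a floor of 3 normalized counts per library. The fit was tested on simulated data. The members and gene lists were chosen with earlier results of these data known. All members are accounted for by this rule: values per library for the members that moved most and ranges for the rest. Per list and comparison at most 2 called genes are named, except for cell type markers. Alternatives were the pseudocount, filter, scaling, the deposited scale, a replicate block, and leaving out libraries or groups.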

Additional observations from a re-analysis of the deposited data

Results flagged for a closer look

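The change from KO2 to the rescue clones differed from the change from WT to the eGFP line for 18 of the 32 genes, by limma's test of the difference itself (adjusted p under 0.05 with an absolute log2 difference over 1). Among the mevalonate enzymes the difference on the log2 scale was 3.26 for HMGCS1, 4.0 for MVK, 3.09 for ACAT2, 3.07 for FDPS, 2.32 for IDI1 and 1.55 for MVD. Among the sterol enzymes it was 3.29 for EBP, 3.25 for DHCR7, 2.44 for LSS, 2.02 for TM7SF2, 2.00 for HSD17B7, 1.86 for NSDHL, 1.68 for FDFT1 and 1.21 for SC5D. CYP51A1 differed by 4.73, with an adjusted p of 0.0493 by limma, and its libraries held between 0 and 408 normalized counts. INSIG1 differed by 1.62 and NPC2 by 1.06. CH25H differed by -8.65; it was at 0 in WT and the eGFP line and at 660 and 521 in KO2. Both steps run from untransduced cells at 2% serum to transduced cells at 10%; they differ in the starting line, the SETD2 added, the selection and the cloning, which cannot be told apart.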

How the results depend on the processing

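Counts of called genes are given out of 32. The share of all genes called was not counted under these alternatives, except on the main scale with no fold minimum. Without that share the counts describe how stable the calls were and nothing more. With 1 library left out at a time they ran from 0 to 1 between the serum levels (1 without Rescue2 replicate 1), 8 to 10 for eGFP, 11 to 14 for the transduced lines, 0 to 1 for TGF-β, 15 to 18 for KO1 and 12 to 13 for KO2 against WT, 1 to 3 for the labelled KO2 rescue, 10 to 13 for the rescue clones against KO2 and 7 to 9 against eGFP, 15 to 18 for the difference of the steps, 0 to 1 for SOX2 (1 without SOX2 replicate 2) and 2 to 5 for KO1 against KO2. Between the serum levels, the same total for every library gave 1 call and a fit of all 22 libraries 3, where libraries of a group stand as replicates, and leaving out the rescue clones gave 1. On the deposited scale, which compresses fold changes by construction, the fold minimum left 0 calls for eGFP, the transduced lines, TGF-β, the labelled KO2 rescue, KO1 against KO2 and both comparisons of the rescue clones, 2 for KO1, 1 for KO2 and 5 for the difference of the steps. With no fold minimum on that scale there were 21 for the transduced lines, 10 for TGF-β, 9 for the labelled KO2 rescue, 14 for the rescue clones against eGFP, 20 against KO2 and 11 for KO1 against KO2. On the main scale with no fold minimum there were 5 for TGF-β, 10 for the labelled KO2 rescue, 14 for the rescue clones against eGFP and 10 for KO1 against KO2. Of all genes, 8.5% were higher and 9.22% lower for TGF-β, and 4.96% and 5.38% for the labelled KO2 rescue. The shares were 14.9% and 14.6% for the rescue clones against eGFP and 6.44% and 9.56% for KO1 against KO2. Fitting only the libraries compared, with fewer samples for the spread, gave 6 for eGFP, 0 for TGF-β, 1 for the labelled KO2 rescue and 0 for KO1 against KO2. No filter gave 1 for TGF-β and a pseudocount of 5 gave 5 for KO1 against KO2; the cause was not tested.

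With the replicate number as a block the counts were 0 between the serum levels, 12 for eGFP, 13 for the transduced lines, 2 for TGF-β, 18 for KO1, 12 for KO2, 2 for the labelled KO2 rescue, 8 and 13 for the rescue clones against eGFP and KO2, 18 for the difference of the steps and 3 for KO1 against KO2. Libraries with the same replicate number in 55 pairs of groups deviated with correlations of -0.17 to 0.11, 1 of them over 0.1, so the numbers were not taken to pair the samples. The block ended 1 call, that of EBP in the labelled KO2 rescue. Of the single-gene results for 150 pairs of gene and comparison, 2007 alternatives kept direction and side of the threshold, 205 lost the call and 22 gained one, and 0 turned direction while called. edgeR and DESeq2 were planned as alternatives and were not run, since the values are not whole reads.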
